A study of Mus musculus with 4 samples.

Results

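Lrmda, Gm15050, Ccnb1ip1, Nxf3, Gm364, Fmr1nb, 1700048O20Rik and Gm5771 are 8 of the 20284 genes in a single-cell expression table of mouse embryoid bodies. They were taken by name, as genes already seen to be low in DUX-pulsed cells, and the question was whether that low level held in every class of cells or only in some. Embryoid bodies are aggregates of differentiating embryonic stem cells, and these were harvested at day 9. The control group was grown from control embryonic stem cells and the DUX-pulsed group from embryonic stem cells given a pulse of DUX expression, with 2 libraries described as biological replicates in each group. The labels give no strain, line, clone or length of the pulse. Because the genes were chosen on the contrast between the groups, every control and DUX-pulsed value of these 8 genes below is a description with no test.

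DUX is a homeodomain transcription factor of the cleavage-stage mouse embryo, and its expression in embryonic stem cells switches on genes of that stage. Several of the 8 genes belong to programmes that are normally limited to specialised cells. Ccnb1ip1 encodes HEI10, a ligase needed for meiotic crossovers, Nxf3 is a testis member of the nuclear RNA export factor family, and Fmr1nb is a cancer and testis antigen gene beside Fmr1. Many such germline genes are held silent in somatic cells by methylation of their promoters. Lrmda encodes a leucine-rich repeat protein required for melanocyte differentiation, and Gm5771 is a trypsinogen-like serine protease gene. Gm15050 is an antisense transcript within the Hoxa cluster, 1700048O20Rik is a long intergenic RNA, and Gm364 is a predicted X-linked protein-coding gene.

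The libraries held 2824 and 2636 kept cells in control replicates 1 and 2, and 2063 and 1353 in DUX-pulsed replicates 1 and 2, of 10090 deposited. Their totals lay between 36462169 and 96344329 unique molecular identifiers (UMIs, 1 per captured RNA molecule), with a median of 27260 to 30402.5 UMIs per cell. Median mitochondrial shares lay at 6.22% and 6.42% for control and 4.01% and 4.54% for DUX-pulsed cells. Any 2 libraries shared between 0 and 2 cell barcodes. Dux itself was not analysed here, so the pulse could not be checked in these cells. The Y-linked genes Ddx3y and Eif2s3y had 0 UMIs in both control libraries, against 8.83 and 14.1 CPM (counts scaled to a fixed library total) of Ddx3y and 12.3 and 17.1 CPM of Eif2s3y in DUX-pulsed replicates 1 and 2. Uty, also Y-linked, stood at 0.126 and 0.109 CPM in the controls against 3.77 and 6.47 CPM in the DUX-pulsed libraries. Xist had 11 and 1.25 CPM in the controls against 7.23 and 2.81 CPM after the pulse, with overlapping groups (edgeR quasi-likelihood test, Benjamini-Hochberg adjusted p = 0.853). The groups therefore differed in Y-linked RNA as well as in the pulse, and for every result below the pulse and a difference between the cell lines or clones cannot be told apart.

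The 8 genes lie on 4 chromosomes of mm10. Lrmda spans chr14:22019712-23056085 on the plus strand, a locus of 1036374 bases that overlaps Gm10248. Ccnb1ip1 lies on the same chromosome at chr14:50789248-50807732 on the minus strand. Gm15050 at chr6:52172881-52174059 overlaps Hoxa3 on the opposite strand, and whether the counting used strand is not given in the sources used here, so reads of the pair may be mixed. Gm5771 at chr6:41392356-41397230 has close paralogs in the trypsinogen cluster, which makes its counts uncertain. Nxf3 (chrX:136072099-136085255, minus strand), Gm364 (chrX:57409154-57488767) and Fmr1nb (chrX:68761839-68804567) lie on chromosome X, and 1700048O20Rik at chr9:121937223-121947016.

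Promoter sequences from RefSeq (GRCm38.p6, the mm10 sequence), 250 bases before to 50 after the start, were found for 7 of the 8 genes; Nxf3 had no entry. The first set is shown because Lrmda, Gm15050 and Gm364, which were low in every class or nearly every class compared, each hold 1 E-box, while Ccnb1ip1, also low in every class compared, holds none in a window that starts inside its annotated span. The capitals mark that motif, CACGTG, searched on both strands, a site read by factors of the MYC and MAX family.

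Lrmda, chr14:22019462-22019761, plus strand: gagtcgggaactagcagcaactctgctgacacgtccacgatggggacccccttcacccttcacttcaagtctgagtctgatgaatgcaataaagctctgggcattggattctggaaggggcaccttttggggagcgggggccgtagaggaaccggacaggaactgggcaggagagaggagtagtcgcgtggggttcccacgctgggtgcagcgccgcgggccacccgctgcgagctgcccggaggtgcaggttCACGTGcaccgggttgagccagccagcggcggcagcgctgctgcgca
Gm15050, chr6:52172631-52172930, plus strand: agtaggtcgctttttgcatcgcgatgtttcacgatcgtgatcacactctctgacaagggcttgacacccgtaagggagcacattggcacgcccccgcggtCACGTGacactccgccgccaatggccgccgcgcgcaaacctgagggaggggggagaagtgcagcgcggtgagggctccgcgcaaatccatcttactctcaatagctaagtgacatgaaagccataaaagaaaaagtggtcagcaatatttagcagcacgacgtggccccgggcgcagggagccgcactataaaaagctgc
Gm364, chrX:57408899-57409198, plus strand: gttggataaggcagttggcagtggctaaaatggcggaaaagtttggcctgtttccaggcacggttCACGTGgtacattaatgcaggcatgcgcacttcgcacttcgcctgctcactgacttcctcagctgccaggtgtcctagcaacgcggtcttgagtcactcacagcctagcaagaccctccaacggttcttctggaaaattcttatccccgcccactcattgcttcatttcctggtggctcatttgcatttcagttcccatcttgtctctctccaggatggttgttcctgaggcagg

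An E-box stood in 7.24% of the 27025 promoters in the RefSeq table, and the matches are a description of letters and not of binding. The next promoters are shown because these genes are unlike the E-box set in their content of CpG dinucleotides. In 1700048O20Rik the capitals mark CCAAT boxes, read here on the opposite strand as ATTGG, and in Gm5771 a TATA box (TATAAA), the core promoter element of many strongly tissue-restricted genes.

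1700048O20Rik, chr9:121937025-121937324, plus strand: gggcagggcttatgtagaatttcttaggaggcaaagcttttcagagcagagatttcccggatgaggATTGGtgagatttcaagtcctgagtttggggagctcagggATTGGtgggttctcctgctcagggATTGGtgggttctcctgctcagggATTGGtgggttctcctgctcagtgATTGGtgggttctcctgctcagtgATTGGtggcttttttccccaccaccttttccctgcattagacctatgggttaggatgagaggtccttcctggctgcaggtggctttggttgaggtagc
Gm5771, chr6:41392106-41392405, plus strand: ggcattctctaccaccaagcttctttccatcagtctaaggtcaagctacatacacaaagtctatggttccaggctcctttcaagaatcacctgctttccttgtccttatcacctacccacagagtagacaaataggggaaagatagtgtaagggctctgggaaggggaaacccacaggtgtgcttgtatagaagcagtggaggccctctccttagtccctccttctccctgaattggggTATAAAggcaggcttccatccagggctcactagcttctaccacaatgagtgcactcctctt

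The promoter of 1700048O20Rik held 6 CCAAT boxes. A CCAAT box stood in 37.9% of all promoters and 5 or more in 0.285%. TATAAA stood in 14.2% of promoters and, of the 7, also in that of Gm15050. CCAAT boxes also stood in the promoters of Lrmda (1), Gm15050 (2) and Gm5771 (1). An E2F site (TCCCGC), the other motif searched, stood in that of Ccnb1ip1 and in 20% of all promoters. The motif marked in each promoter was chosen from the matches found. The ratio of observed to expected CpG dinucleotides, the measure that separates CpG islands from other promoters, had a median of 0.389 over all promoters. It was above that median in 5 of the 7, at 1.03 for Gm15050, 0.696 for Lrmda, 0.646 for Ccnb1ip1, 0.62 for Fmr1nb and 0.49 for Gm364, and below it at 0.0522 for 1700048O20Rik and 0 for Gm5771.

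For the culture as a whole, the UMIs of all kept cells in a library were added up and expressed as CPM over TMM-scaled library sizes. Of the 8 genes, 7 passed the threshold as lower in DUX-pulsed libraries (edgeR adjusted p under 0.05), as did 11.1% of all 16140 genes tested, and 15.6% passed as higher. Since the genes were chosen on this contrast, nothing is read from that count. Both DUX-pulsed libraries lay below both controls for the same 7 genes, and for 34% of all genes tested. Fmr1nb was the gene that did not pass.

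**Figure D1:**
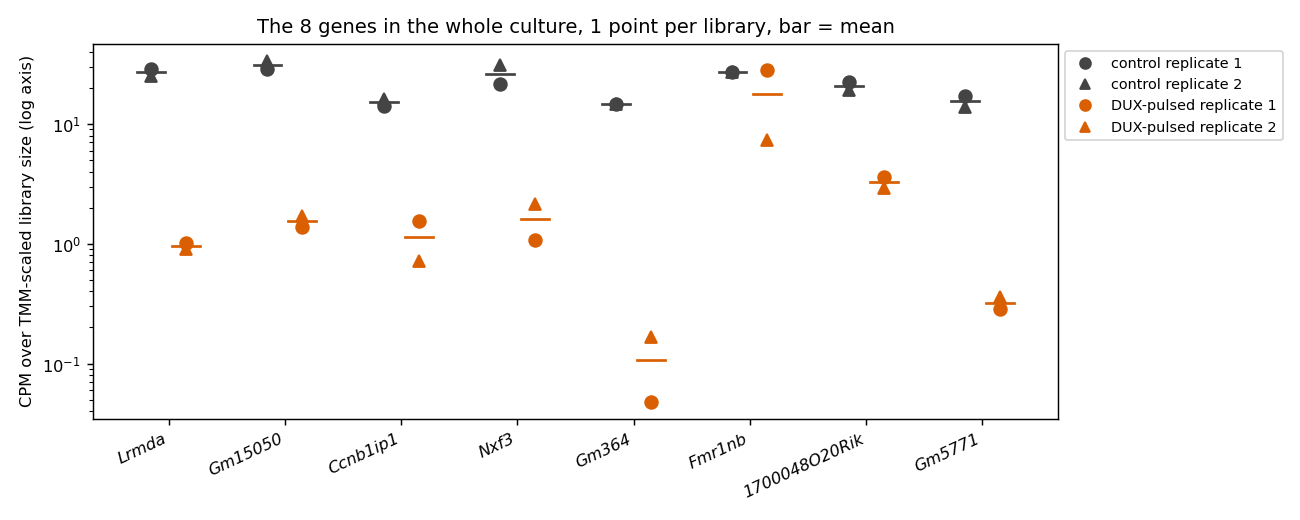
CPM over TMM-scaled library size (log axis) of the 8 genes in each of the 4 libraries, control in grey and DUX-pulsed in orange, with a bar at the mean of 2 libraries. The DUX-pulsed libraries lie below both controls for 7 genes, and Fmr1nb at 28.1 and 7.29 CPM overlaps the controls at 27 CPM.

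Among the genes with roles in the germline, the meiotic ligase gene Ccnb1ip1 stood at 14.2 and 16.1 CPM in control replicates 1 and 2 and at 1.56 and 0.715 CPM in DUX-pulsed replicates 1 and 2, a log2 fold of -3.69 (SE 0.37, n = 2 libraries per group). The export factor gene Nxf3 stood at 21.7 and 30.8 CPM in the controls against 1.07 and 2.15 CPM in the DUX-pulsed libraries, a log2 fold of -4.07 (SE 0.38). For both genes every DUX-pulsed library was below every control library by several fold. The antigen gene Fmr1nb was at 27 CPM in both controls and at 28.1 and 7.29 CPM in the DUX-pulsed libraries, so the groups overlapped and the DUX-pulsed libraries differed from each other (log2 fold -0.60, SE 0.55).

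Lrmda, the melanocyte gene, stood at 28.8 and 25 CPM in the controls against 1.01 and 0.908 CPM in the DUX-pulsed libraries, a log2 fold of -4.80 (SE 0.20). Gm5771, the trypsinogen-like gene, stood at 17.2 and 13.8 CPM against 0.287 and 0.358 CPM, a log2 fold of -5.60 (SE 0.27). The replicates of each group lay close together for both genes and the groups did not overlap.

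The predicted gene Gm364 was the nearest to silence, at 14.7 CPM in both controls (1402 and 1209 UMIs) and at 0.0479 and 0.165 CPM in the DUX-pulsed libraries, which is 3 and 6 UMIs in all (log2 fold -7.27, SE 0.42). The Hoxa antisense transcript Gm15050 stood at 28.7 and 33.5 CPM against 1.39 and 1.71 CPM (log2 fold -4.34, SE 0.21). The long intergenic RNA 1700048O20Rik had 2135 and 1573 UMIs in the controls (20.8 ± 2.32 CPM, SD, n = 2) against 3.64 and 2.92 CPM (log2 fold -2.66, SE 0.21) and kept the highest level of the 7. Pooled over libraries, the DUX-pulsed level was 0.592% of control for Gm364, 1.92% for Gm5771, 3.44% for Lrmda, 4.66% for Gm15050, 5.41% for Nxf3, 7.96% for Ccnb1ip1, 15.5% for 1700048O20Rik and 72.7% for Fmr1nb. The 95% intervals from counting alone of the first 3 were 0.271% to 1.13%, 1.30% to 2.74% and 2.78% to 4.2%.

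The loss was visible cell by cell. Lrmda had at least 1 UMI in 48.8% and 44.7% of control cells and in 2.91% and 1.92% of DUX-pulsed cells. With every cell thinned to 5000 UMIs, which left out shallower cells and kept 2425, 2164, 1903 and 1058 cells of control replicates 1 and 2 and DUX-pulsed replicates 1 and 2, the shares were 15% and 13.9% against 0.525% and 0.378%. For 1700048O20Rik the thinned shares were 10.3% and 9.38% against 1.94% and 1.23%. Both genes were seen in fewer DUX-pulsed than control cells at equal depth.

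Gm364 was different in kind, because in the controls it was found in only 8.29% and 7.55% of cells but at up to 22 and 24 UMIs in a single cell. Fmr1nb also sat in few control cells, 14.0% and 12.2%, with up to 51 and 53 UMIs in a cell. Lrmda, at a like mean level, reached 10 and 14 UMIs in a cell. No cell type of the table is known to lack these genes for certain, so a share due to free RNA could not be set.

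Detection was next counted per cell over the 6 genes other than Fmr1nb and Gm5771, a subset chosen after the values were seen. The shares that each gene's own detection rate would give were not computed, so joint expression is not read from these counts. At least 2 of the 6 were detected in 66.2% and 65.5% of control cells and in 2.13% and 1.26% of DUX-pulsed cells. At least 4 were detected in 19.7% and 18.6% of control cells and in 0 of the 2063 and 0 of the 1353 DUX-pulsed cells, which allows shares of up to 0.145% and 0.222%. None of the 6 was detected in 81.2% and 85.4% of DUX-pulsed cells and in 16.6% and 18.4% of control cells. Of the 3 cells in each DUX-pulsed library that shared a barcode with a control cell, 2 and 1 held one of these genes.

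**Figure D2:**
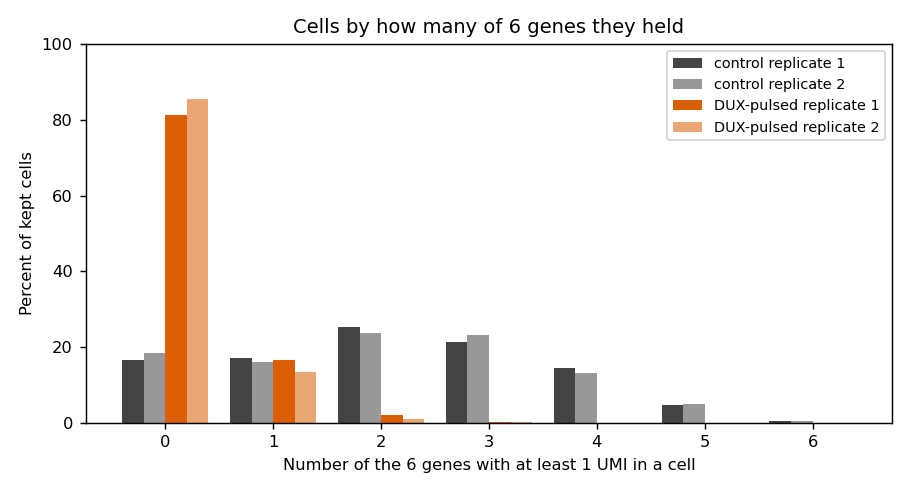
Percent of kept cells (y) by how many of the 6 genes other than Fmr1nb and Gm5771 had at least 1 UMI (x), 1 bar per library. The DUX-pulsed bars stand at 81.2% and 85.4% for none, and no DUX-pulsed cell reaches 4 of the 6.

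The next question was whether the low level held in every class of cells. Clustering of the 8876 kept cells gave 20 clusters, which formed 18 classes. The named classes showed their defining markers, with 16 of 16 markers raised in cardiomyocyte-like cells, 11 of 11 in endothelium-like, 12 of 12 in erythroid-like and 15 of 15 in myeloid and megakaryocyte-like cells. Of the mesenchyme and fibroblast markers, 14 of 15 were raised in both clusters of that class. Support was weaker for trophoblast-like cells, with 11 of 13 raised, and for visceral and primitive endoderm-like cells, with 11 of 16 raised and 0 among the top 10 genes. Other clusters were left unnamed and are given by their leading genes. A class was compared where each library had at least 10 cells in it, which held for 10 classes, and a gene within it where at least 10 UMIs were expected in both groups. The clustering used these genes together with all others, so a class is not independent of them.

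Of the 8 genes, 7 could be compared in at least 4 classes and Gm5771 in none, which gave 38 pairs of a gene and a class. In 32 of the 38 the pooled DUX-pulsed CPM was at most 25% of control, against 1.04% of the 84784 pairs over all genes. By class that background was 0.352% in cardiomyocyte-like, 0.926% in endothelium-like, 0.929% in erythroid-like and 1.31% in mesenchyme- and fibroblast-like cells, and 1.11%, 0.57%, 0.226%, 0.841%, 2.26% and 1.2% in clusters 2, 5, 6, 8, 9 and 16. Both DUX-pulsed libraries lay below both controls in 36 pairs, against 32.7% of pairs over all genes. The genes were chosen for being low, so neither count is read as evidence about them. With the cells of control replicate 1 left out, 18 of 22 pairs met the 25% limit.

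Lrmda was at or below 25% in all 7 classes compared. Without DUX-pulsed replicate 2 this no longer held, because a count of 0 was taken as 3 counts. Cluster 16 had 0 Lrmda UMIs in DUX-pulsed replicate 1. In mesenchyme- and fibroblast-like cells Lrmda stood at 39.5 and 40.5 CPM in the controls against 0.599 and 0.578 CPM in the DUX-pulsed libraries, 1.48% of control (95% interval 0.800% to 2.51%). In endothelium-like cells the values were 49.7 and 74.2 CPM against 1.48 and 0 CPM. The DUX-pulsed level of the 7 classes lay between 0% and 3.38% of control as measured, with the highest measured share in erythroid-like cells (48.9 and 74.9 against 2.24 and 2.08 CPM). With 0 taken as 3 counts, the highest share was 10.5%. Cluster 16, led by Camkv, Rarres1 and Gsdma2, had 1153 control UMIs of Lrmda and 0 DUX-pulsed UMIs, at least 9.54-fold lower when 0 is set to a floor of 3 counts over the group.

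In cardiomyocyte-like cells, where too few UMIs were expected for a comparison, Lrmda stood at 50.7 and 45.8 CPM in the controls against 1.52 and 0.139 CPM in the DUX-pulsed libraries. The control cells of that class were shallow, with a median of 7202 UMIs against 23886 in DUX-pulsed cells. Cluster 2, which raised 15 of 16 cardiomyocyte markers, was compared, and Lrmda stood there at 2.66% of control. Of all classes, myeloid and megakaryocyte-like cells gave the most DUX-pulsed Lrmda UMIs, 33.3% and 48.5% of them, and stood at 6.19 and 14.2 CPM, against 41.8 and 30.2 CPM in their few control cells (37 and 9). The class held different cells in the 2 groups: 83 DUX-pulsed but only 2 control cells had more macrophage than megakaryocyte marker UMIs, and 51 and 43 had more megakaryocyte marker UMIs. Among the latter Lrmda stood at 6.18 CPM in DUX-pulsed and 37 CPM in control cells. The 83 DUX-pulsed macrophage-marker cells stood at 9.33 CPM, from 27 UMIs.

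Ccnb1ip1 was at or below 25% in all 4 classes compared, between 0% and 7.30% of control. This no longer held without control replicate 2, with all deposited cells, or when classes of at least 5 cells per library were taken. In mesenchyme- and fibroblast-like cells it had 160 UMIs in the controls and 12 in the DUX-pulsed libraries (0.599 and 0.385 CPM), 2.82% of the control CPM. Higher shares lay outside the compared pairs. In cluster 4, which is led by Gkn1, Rhox5 and Gkn2 and raised 9 of 10 parietal endoderm markers, Ccnb1ip1 kept 4.40 and 3.72 CPM against 13.1 and 13.7 CPM, and this cluster gave 61.2% of its UMIs in DUX-pulsed replicate 1. In cluster 8, whose cells were far shallower than the rest, it stood at 4.72 and 5.58 CPM against 7.24 and 15.4 CPM, with 1 UMI behind the value of each DUX-pulsed library.

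Nxf3 was at or below 25% in all 5 classes compared, which no longer held without DUX-pulsed replicate 1. Its highest share was in cluster 16, at 22.2 and 31.9 CPM against 0 and 7.57 CPM (17.0%, 95% interval 4.61% to 43.5%), where only 4 DUX-pulsed UMIs stood behind the value. In mesenchyme- and fibroblast-like cells, which held most of its DUX-pulsed UMIs of replicate 2 (52.6%), it stood at 25.7 and 37.8 CPM against 2.02 and 3.95 CPM. The lowest share was 3.48% in cluster 9, led by Foxe1, Dppa5a and Sox2.

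Gm364 was at or below 25% in all 4 classes compared, with 0 DUX-pulsed UMIs in 3 of them. In cluster 9 it stood at 15 and 11 CPM in the controls, and the DUX-pulsed level was at least 19.4-fold lower against the 3-count floor. That floor takes UMIs as independent, while Gm364 UMIs sat in few control cells, so the limit is weaker than 19.4-fold. Of its 9 DUX-pulsed UMIs, 3 came from trophoblast-like cells of replicate 1 and 5 from mesenchyme- and fibroblast-like cells of replicate 2. Up to 5 of its UMIs stood in a single DUX-pulsed cell of replicate 2.

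Gm15050 was at or below 25% in 6 of 7 classes. Erythroid-like cells had the highest control level, at 66.2 and 68.4 CPM, and 0 UMIs in both DUX-pulsed libraries (at least 41.7-fold lower against the 3-count floor). Cluster 9 was just outside the limit, at 21.5 and 33.8 CPM against 4.86 and 10.4 CPM, 26.9% of control (95% interval 17.0% to 41.2%). The DUX-pulsed cells of cluster 9 were shallower, with a median of 9859 UMIs against 30457. Mesenchyme- and fibroblast-like cells kept 3.59 and 3.47 CPM against 38.6 and 37.5 CPM.

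1700048O20Rik kept the most of the consistently lowered genes, at 13.0% to 29.2% of control over 6 classes, and was at or below 25% in 4 of them. The lowest share was in cluster 5, led by Serpina6, Alb and Itih2, at 44.4 and 35.6 CPM against 5.23 and 5.10 CPM. The 2 classes above the limit were cluster 16 at 29.2% (95% interval 9.45% to 68.5%) and cluster 9 at 25.7% (16.1% to 39.5%), and both intervals span the limit. In all 6 classes both DUX-pulsed libraries were below both controls.

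**Figure D3:**
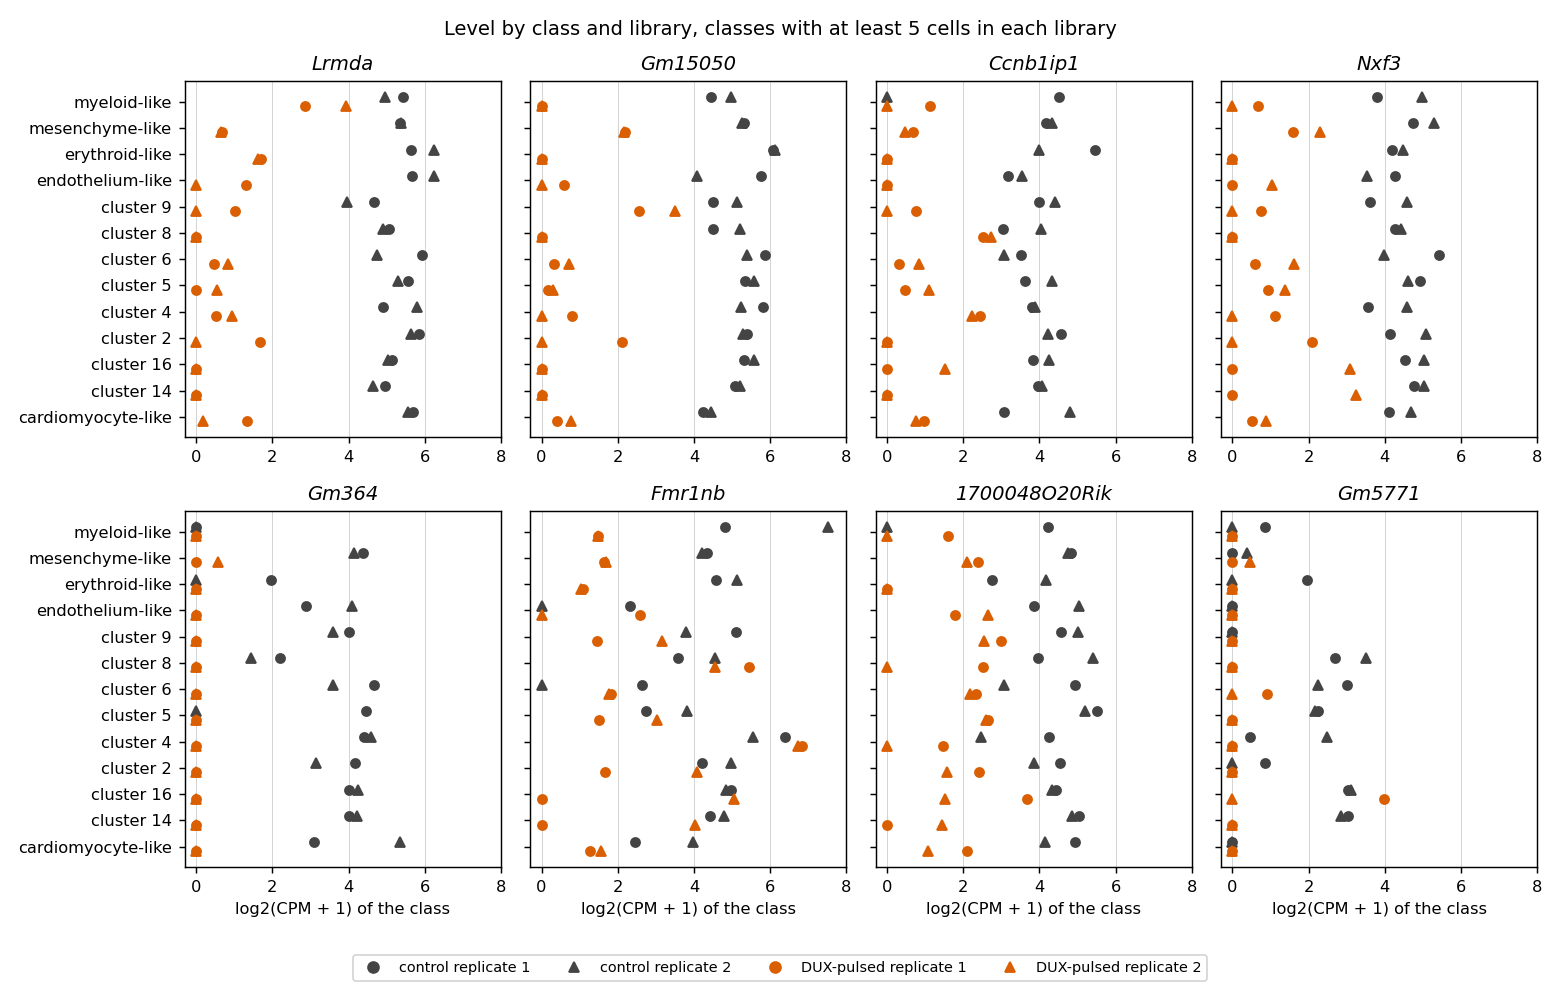
log2(CPM + 1) of the 8 genes (x) in the classes with at least 5 cells in every library (y), with 1 point per library, control in grey and DUX-pulsed in orange. For Lrmda the orange points lie left of the grey points in every class drawn, while for Fmr1nb they lie right of them in cluster 4.

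Fmr1nb was at or below 25% in 2 of 5 classes, at 11.6% in mesenchyme- and fibroblast-like cells (19.3 and 17.4 against 2.10 and 2.22 CPM) and 12.7% in cluster 9. Under the stricter cell filter and without DUX-pulsed replicate 2 it was at or below 25% in every class then compared. In cluster 2, led by Tdgf1, Ankrd1 and Myh11, it stood at 30.5% and in cluster 5 at 39.6%. In cluster 16 it stood at 67.9%, with 30.2 and 27.6 CPM in the controls against 0 and 32.2 CPM, so the DUX-pulsed libraries lay on both sides of the controls. The libraries also overlapped in cluster 5.

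The highest DUX-pulsed level of Fmr1nb over the classes with cells in every library stood in cluster 4, apart from 117.1 CPM in the 3 cells of cluster 17 of replicate 1. In cluster 4 it reached 113.1 and 105 CPM in DUX-pulsed replicates 1 and 2 against 83.4 and 45.7 CPM in the controls. This cluster gave 87.5% and 42.6% of all DUX-pulsed Fmr1nb UMIs, and made up 12.2% and 2.07% of DUX-pulsed cells against 1.84% and 0.341% of control cells. Without cluster 4, Fmr1nb stood at 25.1 and 28.4 CPM in the controls and at 4.3 CPM in both DUX-pulsed libraries, so the spread between the DUX-pulsed replicates was in cluster 4. In cluster 8 Fmr1nb was also not lower, at 10.9 and 22.3 CPM in the controls against 42.5 and 22.3 CPM, from 19 and 13 UMIs (95% interval of the pooled ratio 90.2% to 424%). Trophoblast-like cells, of which the controls had only 1, held 51.1 and 32.8 CPM in the DUX-pulsed libraries.

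Gm5771 was found mainly in 2 clusters of the controls, and both were almost empty in DUX-pulsed cultures. Cluster 18, with Fgf5 and Eomes among its leading genes, and cluster 19, led by Trh, Mixl1 and Eomes, gave 79.6% and 71.4% of its control UMIs, at 42.7 and 37.2 CPM in cluster 18 and 53.8 and 45.6 CPM in cluster 19. DUX-pulsed libraries had 4 and 3 cells in cluster 18 and 2 and 4 in cluster 19, and those cells stood at 17.0 and 24.1 CPM and at 18.5 and 21.1 CPM. Gm5771 had 0 UMIs in cardiomyocyte-like, endothelium-like and cluster 9 cells of all 4 libraries. The label of near silence in all DUX-pulsed classes thus did not match the values of Fmr1nb, and for Gm5771 no class allowed the comparison. It also did not match 1700048O20Rik, at 13.0% to 29.2% of control, or Gm15050 in cluster 9, at 26.9%. Outside the compared pairs, Ccnb1ip1 stood at 33.1% of control in cluster 4 and Lrmda at 20% in myeloid and megakaryocyte-like cells.

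The shares of classes could alone have moved a level of the whole culture. Each DUX-pulsed library was therefore given the level it would have if its cells, in their own class shares, had the control level of each class (17 classes with control cells of both libraries). Trophoblast-like cells, which held all 3 Gm364 UMIs of DUX-pulsed replicate 1, were left out of this level and of the measured level beside it. For Lrmda that level was 40.5 and 43 CPM against 0.984 and 0.919 CPM measured, so the measured level was 2.43% and 2.14% of it. The measured level was 3.23% and 4.36% for Gm15050, 9.51% and 4.51% for Ccnb1ip1, 4.70% and 8.34% for Nxf3, 0% and 0.843% for Gm364, and 14.9% and 11.5% for 1700048O20Rik. For these 6 genes the level from class shares was 84.4% to 156% of the control level. For Gm5771 the class shares alone took the level to 10.8% and 14.7% of control, and the measured level was 16.6% and 15.5% of that. For Fmr1nb they gave 105% and 58.6% of control, and the measured level was 90.9% and 42.7% of that.

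**Figure D4:**
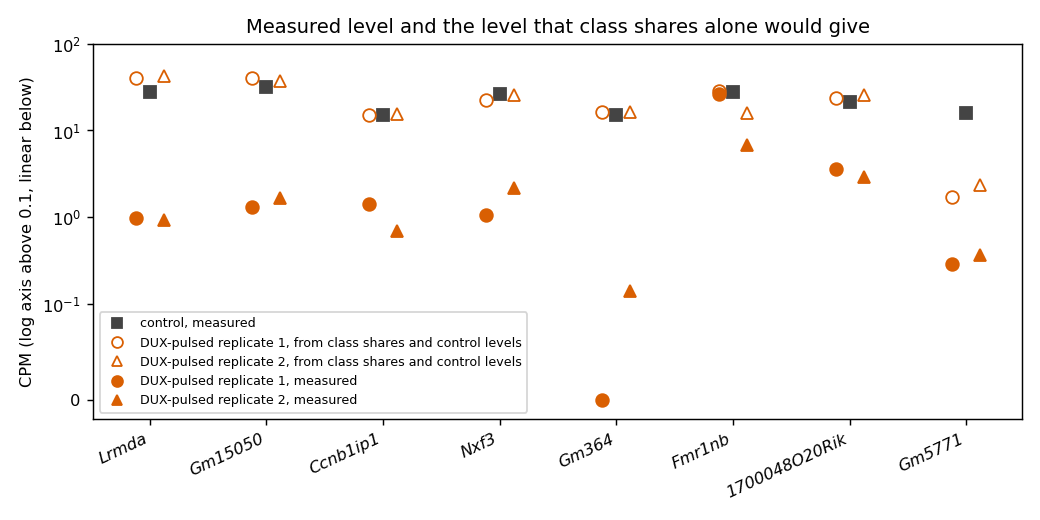
CPM of the 8 genes in the controls (squares), the level that class shares and control class levels would give each DUX-pulsed library (open symbols) and the level measured there (filled symbols), on an axis that is logarithmic above 0.1 and linear below. Open symbols lie furthest from the square for Gm5771, at 1.72 and 2.34 CPM against 15.9 CPM. For Fmr1nb that of replicate 2 stands at 16.1 against 27.5 CPM, and for Lrmda they stand at 40.5 and 43 against 27.5 CPM. Trophoblast-like cells are left out.

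The 72 DUX-pulsed cells that fell into the 6 classes with at least 90% control cells (3718 control cells, in clusters 14, 16, 17, 18 and 19 and visceral and primitive endoderm-like) offered a further look. At control levels those cells would have given 71.4 UMIs of Lrmda, 88.2 of Gm15050 and 41.7 of Gm364, and each had 0. With 0 set to 3 counts, and UMIs taken as independent, these are at least 23.8-fold, 29.4-fold and 13.9-fold lower. In the controls, however, Gm364 was found in 8.29% and 7.55% of cells, at up to 22 and 24 UMIs in a single cell. Its limit is therefore weaker than 13.9-fold. They had 2 UMIs of Ccnb1ip1 against 41 expected and 10 of Nxf3 against 73.9. These cells clustered with control cells, and Lrmda, Gm15050 and Gm364 were not detected in them. Fmr1nb (34 UMIs against 72.8), Gm5771 (20 against 42.4) and 1700048O20Rik (12 against 59.3) were detected there.

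Over the whole table, 8742 genes could be compared in 5 or more classes, and 4 of them (0.0458%) were at or below 25% of control in every class compared, taking a count of 0 as 3 counts. They were Lrmda, Nxf3, Slc9b1, a sodium and proton exchanger gene of sperm, and Rhox13, an X-linked homeobox gene of the germline. Slc9b1 stood at 32.2 and 29.1 CPM in the controls against 5.57 and 2.61 CPM in the DUX-pulsed libraries, and Rhox13 at 19.5 and 13.5 against 0.910 and 1.29 CPM. The number of such genes moved with the settings, to 0 without control replicate 1, 1 without control replicate 2 and 2 without DUX-pulsed replicate 1.

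Genes with the most similar profile were taken by Pearson's r between their log2(CPM + 1) and the mean standardized profile of the 8 genes over 40 sums of a class and a library. The sums share libraries, and the profile is dominated by the contrast on which the genes were chosen, so r is only a description. The 10 closest were Gm47283 (r = 0.94), Tex13b, Pibf1, Slc9b1, Pnma5, Ube3b, Rhox13, Ccz1, Cryzl1 and Dtx2 (r = 0.83). Of these, Pibf1, Cryzl1, Ube3b, Ccz1 and Dtx2 had whole-culture log2 folds of only -1.0, -0.73, -0.73, -0.69 and -1.08. Pibf1 lies on chromosome 14 and Cryzl1 on chromosome 16. Ube3b, Ccz1 and Dtx2 lie on chromosome 5, where 20.2% of tested genes fell, beside 11.1% of all genes. The part of that shift in the likeness of Ube3b, Ccz1 and Dtx2 was not tested. The 8 genes themselves ran from 0.50 for Gm5771 and 0.53 for Fmr1nb to 0.95 for Nxf3. Gm47283, annotated on chromosome Y, stood at 928 and 636 CPM in the controls against 240 and 184 CPM in the DUX-pulsed libraries. Ddx3y and Eif2s3y, which had no UMI in those controls, lie in another part of that chromosome. Tex13b, an X-linked testis gene, stood at 9.17 and 9.75 CPM against 0.303 and 0.0550 CPM.

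Within the controls alone (20 sums) the likeness was looser. The closest were Asb3 (r = 0.74), Selenos, Brsk1, Chm, Stambp, Btd, Gm17501, Dixdc1, Kif1bp and Derl1 (r = 0.63), none of which is among the 10 above. The 8 genes ran from 0.14 for Gm364 to 0.79 for Nxf3. Among the 10 classes with at least 10 cells in each library, the highest control level was 2.90 times the lowest for Lrmda and 2.40 times for Nxf3. The ratio was 3.23 for Ccnb1ip1, 3.24 for 1700048O20Rik, 3.53 for Gm15050, 8.45 for Fmr1nb and 16.91 for Gm364. For Gm5771 the control level ran from 0 to 7.92 CPM.

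The surroundings of the genes were then compared, since neighbours were not used to choose them. The folds of neighbours are those of the whole culture, and the class shares of the groups differed. What part those shares had in the folds was not tested. Within 500 kb of the 8 genes the table held 107 other genes, of which 74 were tested, 8 rose, 14 fell and 52 did not pass the threshold (edgeR adjusted p under 0.05). Their median log2 fold was -0.10, beside a median of 0 for all genes, of which 15.6% rose and 11.1% fell. The neighbourhood of Gm5771 contained the pancreatic trypsinogen gene Prss1, which fell from 11.0 ± 1.13 (SD, n = 2) to 0.261 ± 0.0980 CPM (log2 fold -5.46, edgeR adjusted p = 0.00196), a paralog that may share reads with Gm5771. Beside Gm5771, Trbc2 also fell (log2 fold -2.86) and the blood group gene Kel rose (2.15).

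Next to 1700048O20Rik, Fam198a, 3972 bases away, fell from 0.747 to 0.0617 CPM (log2 fold -3.41, edgeR adjusted p = 0.00830), and the glycosyltransferase gene Pomgnt2 fell from 18.3 to 6.06 CPM (log2 fold -1.59, adjusted p = 0.00292). Gm26797 fell there too (-2.78), while the peptide hormone gene Cck (1.94) and Trak1 (0.78) rose, the latter not without control replicate 1 or 2. Around Gm15050 the antisense RNA Hoxaas3 (-1.91), the homeobox gene Evx1 (-1.99) and Evx1os (-1.74) fell and the long RNA Hotairm1 rose (1.09). These 4 calls were lost without control replicate 1, and their highest edgeR adjusted p over 11 alternatives ran from 0.107 to 0.23. Hoxa3, which overlaps Gm15050, did not pass the threshold (log2 fold 0.14).

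Gm10248, which overlaps the end of Lrmda, fell from 0.332 CPM to 0, and upstream of it the repressor gene Zfp503 rose (log2 fold 1.44, edgeR adjusted p = 0.0102). Around Ccnb1ip1 the ribonuclease gene Rnase6 rose (5.0) and its relatives Rnase4 (-0.92) and Ang (-0.85), whose gene bodies overlap, fell. On chromosome X, Arhgef6 (2.74) and Rbmx (0.55) rose beside Gm364, and Tcp11x2 (-1.57), Gprasp2 (-0.92) and Armcx5 (-0.64) fell within 500 kb of Nxf3. Without control replicate 2 the calls of Rnase4, Ang, Rbmx, Tcp11x2, Gprasp2 and Armcx5 were lost, and without control replicate 1 those of Ang, Rbmx, Tcp11x2 and Armcx5. Rbmx also lost its call with plain library totals, Tcp11x2 with DESeq2, with no filter on low counts and without DUX-pulsed replicate 1, and Ang and Armcx5 without DUX-pulsed replicate 2. Of the 2 tested neighbours of Fmr1nb neither passed. Apart from Gm10248, the neighbours that fell had log2 folds from -0.64 to -5.46.

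**Figure D5:**
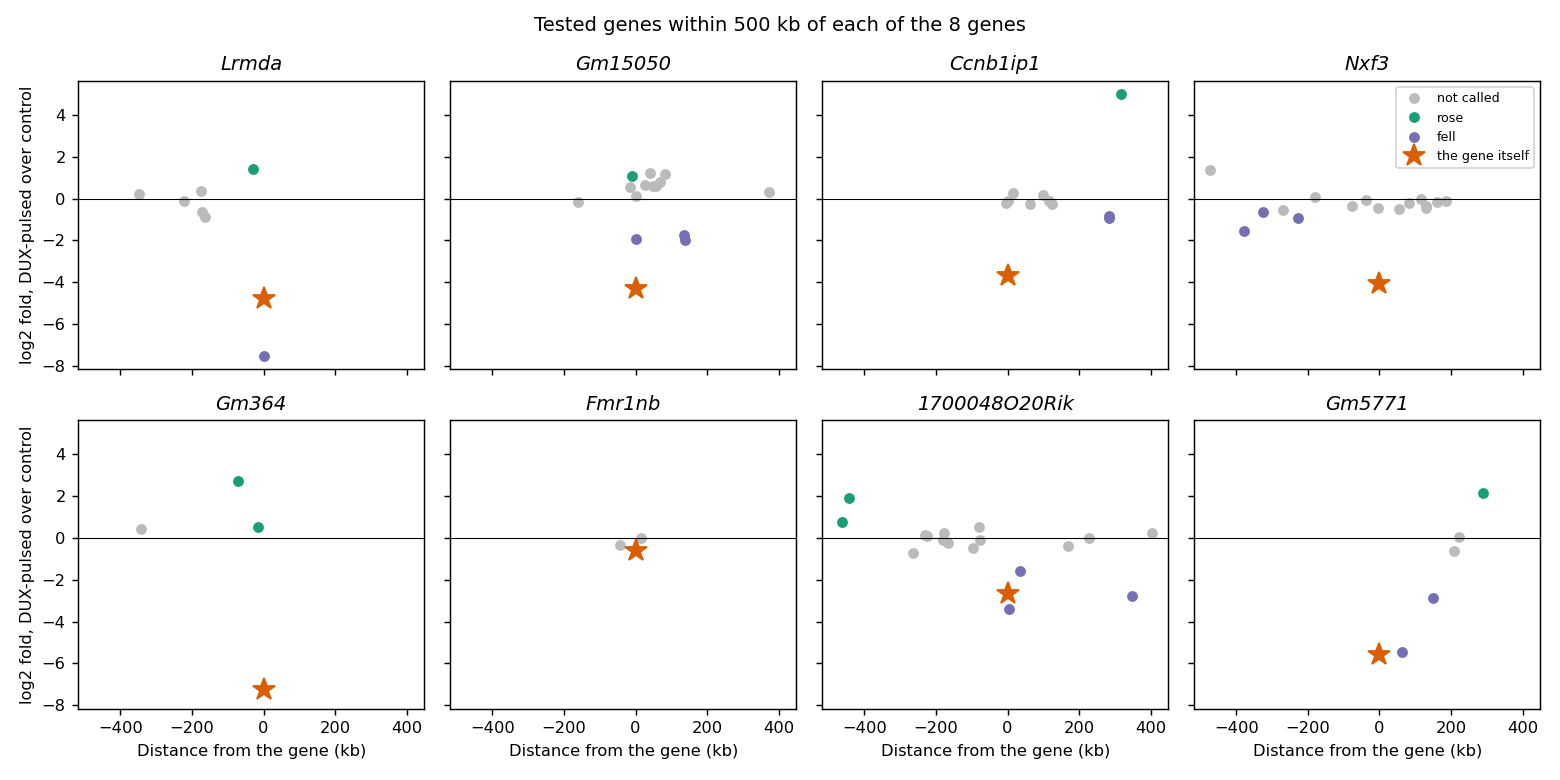
log2 fold of DUX-pulsed over control (y) of tested genes against their distance in kb (x) from each of the 8 genes, green for genes that rose, purple for genes that fell, grey for genes not called and a star for the gene itself. Most neighbours lie near 0, and Prss1 at -5.46 lies beside Gm5771.

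Other genes of the same pathways were taken from lists of known function. Their folds too are those of the whole culture, and the part of differing class shares in them was not tested. Of 22 tested genes of meiotic recombination and synapsis, 2 fell, 0 rose and 20 did not pass, with a median log2 fold of -0.13. The meiotic cohesin gene Rec8 fell from 4.95 ± 0.481 (SD, n = 2) to 1.23 ± 0.181 CPM (log2 fold -2.0, edgeR adjusted p = 0.00470), and the synaptonemal complex gene Tex12 fell from 0.362 to 0.0399 CPM (adjusted p = 0.0417, and up to 0.091 over the alternatives). Of 27 genes of nuclear RNA export 1 rose and 1 fell, with a median of -0.04. These were Thoc3 (log2 fold 0.86, adjusted p = 0.0222) and Thoc1 (-0.55, adjusted p = 0.0380), both parts of the THO complex. Both calls were lost without control replicate 2.

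Of 26 tested melanosome and pigment genes 4 rose and 4 fell, with a median log2 fold of -0.28. Mitf, the master regulator of melanocytes, rose from 2.14 ± 0.103 (SD, n = 2) to 10.8 ± 3.32 CPM (log2 fold 2.33, edgeR adjusted p = 0.00389). Bloc1s5 (1.58) and Lyst (1.14), of lysosome-related organelles, rose, Lyst not without control replicate 1 or 2, and the melanosome transport gene Rab38 fell (-1.44, adjusted p = 0.00751). The pancreatic proteases had 4 tested genes, of which Prss1 fell. Thoc3, Bloc1s5 and Lyst lie on chromosome 13, where 58.9% of the 627 tested genes rose, and the part of that shift in their rise was not tested.

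Of 28 tested germline and X-linked testis genes, 4 rose, 3 fell and 21 did not pass, with a median log2 fold of -0.27. Tex13b fell from 9.46 ± 0.411 (SD, n = 2) to 0.179 ± 0.176 CPM (log2 fold -5.54, edgeR adjusted p = 0.00259). The piRNA pathway genes Mov10l1 (log2 fold 2.62, adjusted p = 0.00360) and Tdrkh (1.03, adjusted p = 0.0128) and the X-linked ferritin gene Fthl17a (2.51, adjusted p = 0.00677) rose. Tdrkh lost its call without control replicate 1 or 2. Over whole chromosomes, 15.7% of tested genes fell on X, 12.6% on 14, 11.5% on 6 and 9.73% on 9, beside 11.1% of all genes.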

How the data were processed

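Single-cell RNA was measured in 4 droplet libraries. The table deposited by the authors holds whole-number UMI counts per gene and cell, with no normalization. The submitters' processing notes name Cell Ranger 2.2.0, STAR and mm10 without their roles. The counting annotation is not given in the sources used here. A cell was kept if it had 500 genes or more and no more than 10% mitochondrial counts (8876 of 10090). The 8 genes, gene lists, markers and tests were chosen with earlier results of these data known. Sums per library were tested with edgeR 4.0.16 (quasi-likelihood, TMM, genes with at least 10 counts in 2 libraries and 40 in all, Benjamini-Hochberg adjustment), and DESeq2 1.42.0 was an alternative. The edgeR script was checked on simulated counts. P-values set the group difference against the spread between the 2 libraries of a group, which edgeR moderates with all genes. They cover no wider spread.

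Cells were clustered with scanpy 1.11.5 and igraph 0.11.9 (2000 variable genes, 30 principal components, 15 neighbours, Leiden resolution 1). A cluster was named where at least 4 markers stood among its top 30 genes and at least 50% were raised. The clusters led by Foxe1 and by Trh were left unnamed after their leading genes were seen. Doublets were kept. Scrublet called 27 (0.3%), too few to rely on, so the 395 highest-scoring cells were left out as an alternative. Class values are CPM of summed counts, and their ratios carry exact 95% binomial intervals that cover counting error only. Genes were placed by symbol with GENCODE vM21 (20021 matched, 263 not).

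Genes were named by rule: the 8 genes, the 10 most alike in profile (at least 5 CPM in controls), up to 4 called genes of each list with the smallest p, every called neighbour, and Xist, Ddx3y, Eif2s3y, Kdm5d and Uty. Kdm5d was too low to be tested.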

Additional observations from a re-analysis of the deposited data

Results flagged for a closer look

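Fmr1nb in cluster 4 stood at 140% of control in pooled DUX-pulsed cells (113.1 and 105 CPM against 83.4 and 45.7 CPM), while both DUX-pulsed libraries lay below both controls in 7 other classes with at least 5 cells in each library. It was singled out because every library moved the opposite way in cluster 4 and in those 7 classes. Cluster 8 also stood above control, at 199% from 13 DUX-pulsed UMIs, cluster 17 at 216% from 3, and in clusters 5, 6, 16, 17 and 18 and endothelium-like cells the libraries overlapped. The difference between the classes was not tested, and control replicate 2 had only 9 cells in cluster 4.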

How the results depend on the processing

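The whole-culture log2 folds of the 7 genes other than Fmr1nb stayed below 0 in all 11 alternative settings, and that of Fmr1nb ran from -1.89 to 0.06. Depth limits the class values: only 5 pairs of a gene and a class could be compared, all 5 low, once cells were thinned to 5000 UMIs, and no class could be compared for Gm5771.

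The labels do not say whether same-numbered libraries share more than a number. Over 16140 genes their deviations correlated at 0.35 in 2 pairs. With the replicate block, called genes went from 4306 to 7184, neighbours from 22 to 35, and list calls to 4 (meiotic, from 2), 4 (RNA export, from 2), 15 (melanosome, from 8), 2 (proteases, from 1) and 13 (germline and testis, from 7).

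With a stricter cell filter (1000 genes or more, mitochondrial share up to 5%), 2042 genes were called, 8 neighbours, 1 meiotic, 1 RNA export and 4 germline and testis genes. Cck turned direction there and lost its call (adjusted p = 0.91), and Kel, Trak1, Ang and Rnase4 lost theirs. In that setting 12 of 14 pairs were low, and 0 genes of the table were low in every class. The meiotic count was 1 with DESeq2 and 1 with all deposited cells.

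Clustering without the 8 genes and the called genes gave 50 low pairs of 54, and 15 genes low in every class. That last count was 8 at Leiden resolution 0.5, 7 with single clusters, 2 with all deposited cells, 0 after thinning, 1 with at least 20 expected counts and 1 at 8-fold. At 8-fold, 2 of the 8 genes (Lrmda and Ccnb1ip1) stayed low in every class compared, against 4. Gm364 had 0 DUX-pulsed UMIs in clusters 16 and 2, where the 3-count floor allowed only 4.8-fold and 6.14-fold. Its loss there thus came from the floor and not from detected RNA. Nxf3 stood at 17.0% in cluster 16. The setting with classes of at least 5 cells per library was added after the data were seen and gave 43 low pairs of 52.

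Leaving out 1 library at a time gave 2366 to 5165 called genes (lowest without control replicate 2), 14 to 26 neighbours, 1 to 4 meiotic, 0 to 3 RNA export, 4 to 9 melanosome, 1 to 2 protease and 4 to 16 germline and testis genes. It gave 18 to 32 low pairs, 3 to 5 genes low in every class compared, and 0 to 4 such genes of the table. Nxf3 did not stay low without DUX-pulsed replicate 1, nor Ccnb1ip1 without control replicate 2. Lrmda did not without DUX-pulsed replicate 2, where 0 UMIs in cluster 16 were taken as 3 counts. The meiotic count was 1 without control replicate 1 or 2 and 4 without DUX-pulsed replicate 1 or 2. The causes of these shifts were not tested.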
